A study of Mus musculus with 2 samples.

Results

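This account covers 10 genes of the endothelial cell surface and its signalling, among the 24062 genes counted in a study of mouse aortic blood progenitors. The genes were taken by symbol: Emcn, Ecscr, Plvap, Clec14a and Tspan7 (surface proteins), Mmrn2 and Egfl7 (secreted proteins), Ramp2 and Robo4 (receptor components), and Nos3 (an enzyme). All 10 had a row in both tables. The study compared 1 library of Gata2Venus-negative cells (the Venus-negative library) with 1 of Gata2Venus-positive cells (the Venus-positive library). Both came from the aorta of C57BL6 embryos at embryonic day 11, and both were gated as CD31+ with intermediate KIT, so that the reporter was the only sort gate that differed between them. Gata2Venus is a fluorescent reporter transgene for Gata2, a transcription factor of blood progenitors, and the labels call both populations haematopoietic progenitor cells. How many embryos went into each library is not given in the sources used here. The comparison asks how cells of this gate without reporter signal differ from those with it.

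In the embryonic aorta, blood progenitors bud from specialised endothelium, and newly formed progenitors can still carry endothelial RNA and surface protein. Endothelial cells line vessels with a coat of glycoproteins and mucins, control the passage of molecules and leukocytes, and receive signals such as adrenomedullin, SLIT proteins and blood flow. CD31, the gate used for both libraries, is itself a protein of endothelium and of several blood cell types.

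Of the 10 genes, 6 were lower in the Gata2Venus-negative library by the rule of size, and 0 were higher. These were Ecscr, Ramp2, Emcn, Mmrn2, Egfl7 and Plvap, which were 2.33-fold to 4.75-fold lower. The other 4, Nos3, Robo4, Clec14a and Tspan7, did not pass the rule, and Clec14a and Tspan7 had larger values in the Venus-negative than in the Venus-positive library. To pass, a gene needed at least 10 CPM (counts in each 1000000) and 50 counts in its higher library, with the 95% counting interval of the ratio entirely outside 2-fold. By that rule 14.9% of the 10381 genes with that level in a library were lower in the Venus-negative library and 15.2% were higher. Over all 12544 genes with at least 20 counts in total, the shares were 12.3% and 12.6%. The share fell with level: among genes of 100 to 500 mean CPM, where 7 of the 10 lie, 4.68% were lower in the Venus-negative library and 5.77% higher, against 4 of these 7 lower and 0 higher. Above 500 CPM the shares were 3.87% and 2.21%, and both members there, Emcn and Plvap, were lower. Tspan7, at 20 to 50 CPM, was in a class where 16.0% were lower and 15.7% higher. Log2 ratios, here always negative over positive, had a median of −1.35 for the 10 genes (interval over members −1.97 to 0.75), against −0.01 for all tested genes.

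Each group has 1 library and no replicate to check a difference against, so no p-value is given, and what is compared is this pair of libraries rather than the conditions. The intervals cover counting error alone, and may be too narrow, since the library protocol amplifies cDNA and no molecular identifiers are named. In RNA from sorted populations, fewer cells of a type and less RNA per cell cannot be told apart. If libraries of a group are assumed to vary with a coefficient of variation of 0.4, 0 of the 10 genes pass, where 5.52% of all tested genes are lower in the Venus-negative library and 5.29% higher.

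**Figure D1:**
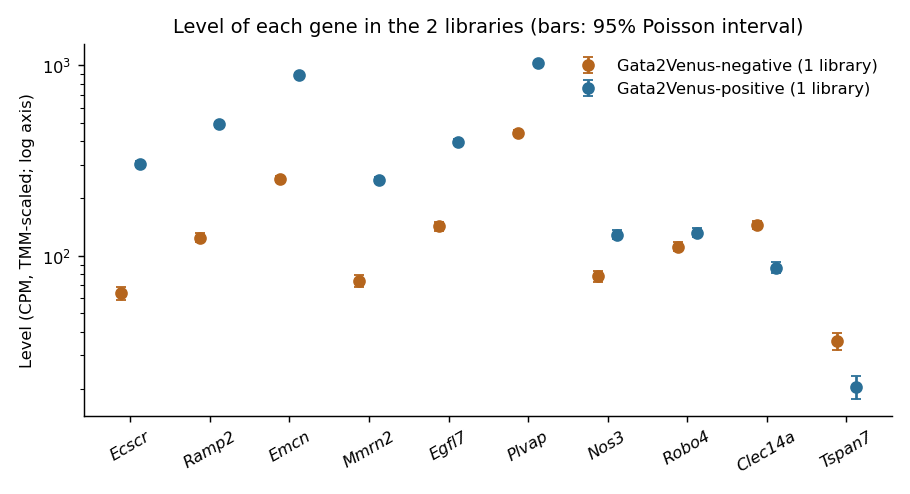
Level of each of the 10 genes in the Gata2Venus-negative and Gata2Venus-positive libraries in CPM on a log axis, with 95% Poisson intervals, ordered by the ratio between the libraries. The positive library lies above the negative for 8 genes, from Ecscr (63.7 and 302 CPM) to Robo4 (112 and 132 CPM), and below it for Clec14a and Tspan7.

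Gene counts summed to 10135400 (Venus-negative) and 9715131 (Venus-positive). As a check of the labels, Gata2 had 141 and 664 counts, with a log2 ratio of −2.37 (interval −2.65 to −2.11), the direction of the sort. Pecam1, which encodes the gated CD31, was at 537 and 489 CPM (log2 ratio 0.13, interval 0.08 to 0.19), and Kit, the other gated gene, was at 199 and 60.7 CPM, 3.28-fold higher in the Venus-negative library (log2 ratio 1.71, interval 1.58 to 1.85) and past the rule. All 34 endothelial markers on a separate list were detected in both libraries. Of the markers that define blood progenitors, Runx1 had 21 and 303 counts and Ptprc 194 and 498, while Myb and Gfi1b were at 0 in the Venus-negative library and Spn and Gfi1 at 0 in both. Other blood cell markers, named after their values were seen, were counted in both libraries and did not pass the rule. They were Vav1 (178 and 194 counts), Ikzf1 (131 and 219), Itga2b (478 and 857) and Coro1a (946 and 1699). In all, 793 of the 12544 tested genes were at 3 counts or fewer in one library and at 100 or more in the other. Of the 10 genes 0 were among them, which does not set them apart, because the share of all genes was itself small.

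The coat proteins of the endothelial surface differed by unlike amounts. Plvap forms the diaphragms that span endothelial fenestrae and caveolae. It had 4618 counts in the Venus-negative and 9769 in the Venus-positive library, which are 444 CPM (interval 431 to 457) and 1033 CPM (1013 to 1054). Its level was thus 2.33-fold lower in the Venus-negative library (log2 ratio −1.22, interval −1.27 to −1.17), the smallest difference among the 6. Emcn encodes endomucin, a sialomucin of capillary and venous endothelium that is also used as a surface marker of blood stem cells. It had 2639 and 8447 counts, or 253 and 893 CPM, and was 3.52-fold lower (log2 ratio −1.82, interval −1.88 to −1.75). Ecscr, a small transmembrane protein of endothelial cells that affects their migration and survival, had 663 and 2858 counts, or 63.7 and 302 CPM. At 4.75-fold lower (log2 ratio −2.25, interval −2.37 to −2.12) it had the lowest ratio of the 10, and it alone passed when the interval had to lie beyond 4-fold, as 5.99% of tested genes did in that direction and 5.93% in the other.

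Clec14a and Tspan7 stood at the other end. Clec14a, a C-type lectin-like protein of the endothelial membrane, had 1515 counts in the Venus-negative and 819 in the Venus-positive library, which are 146 CPM (interval 138 to 153) and 86.6 CPM (80.8 to 92.7). Its log2 ratio was 0.75 (interval 0.63 to 0.87), above equal expression and inside 2-fold. Tspan7, a tetraspanin that organises membrane partners and is also expressed in neurons, had 370 and 193 counts, or 35.5 and 20.4 CPM. Its log2 ratio was 0.80 (interval 0.55 to 1.06), which reaches past 2-fold only at its upper end. The 2 ratios differed by 0.05 on the log2 scale (interval −0.23 to 0.33), less than the counting error. From Ecscr to Tspan7 the ratios spanned 3.05 on the log2 scale, or 8.26-fold.

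**Figure D2:**
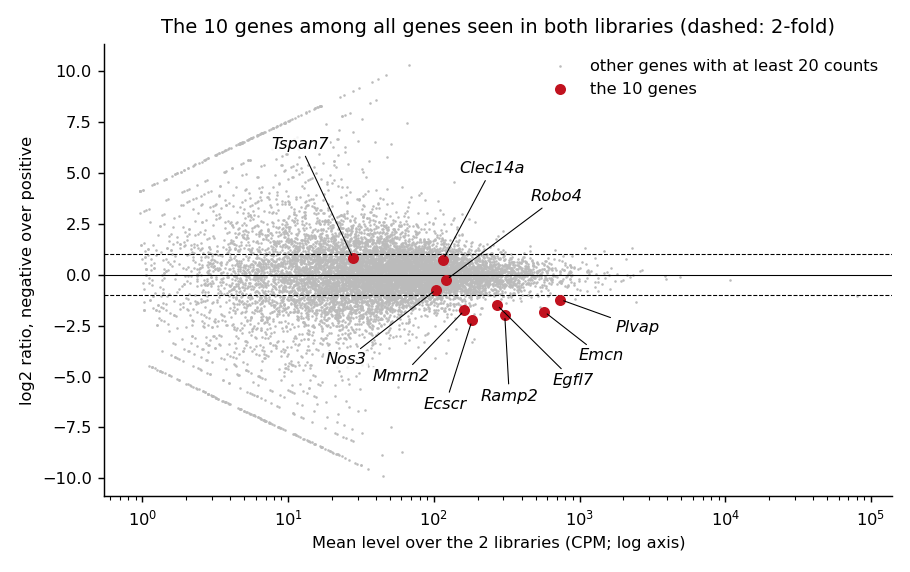
Log2 ratio of negative over positive against the mean level in CPM (log axis) for every gene with at least 20 counts in total that was seen in both libraries, with the 10 genes in red and 2-fold marked by dashed lines. The 6 genes past the rule lie below −1 between 162 and 738 mean CPM, whereas Tspan7 and Clec14a lie above 0 and inside 2-fold.

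Both secreted proteins were lower in the Venus-negative library. Mmrn2, a matrix glycoprotein of the EMILIN family that is laid down around endothelial cells, had 771 and 2365 counts, or 74.1 and 250 CPM. It was 3.38-fold lower (log2 ratio −1.76, interval −1.87 to −1.64), and its ratio differed from that of Emcn by 0.06 on the log2 scale (interval −0.07 to 0.19), within counting error. Egfl7, an EGF-like factor that endothelial cells secrete and that acts in vessel tube formation, had 1487 and 3761 counts, or 143 and 398 CPM. It was 2.78-fold lower (log2 ratio −1.48, interval −1.56 to −1.39).

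Egfl7 is also the host gene of the endothelial microRNA miR-126, shown here because its hairpin lies inside the counted gene (chr2:26591402-26591423 for the mature strand, mm10, plus strand; capitals mark the seed, bases 2 to 8; sequence from RefSeq, GRCm38.p6).
mmu-miR-126a-3p: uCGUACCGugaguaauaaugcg
The tables have a row under the older symbol Mir126, which RefSeq gives as a synonym of Mir126a. It held 10 counts in the Venus-negative and 22 in the Venus-positive library. These counts are few, reads of the precursor and of Egfl7 RNA cannot be told apart there, and the mature strand was not measured separately.

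The receptor components and the enzyme took separate places in the order. Ramp2 is a membrane protein that pairs with the receptor Calcrl and makes it respond to adrenomedullin, a peptide needed for vessel integrity in the embryo. It had 1296 and 4627 counts, or 124 and 489 CPM, and was 3.93-fold lower in the Venus-negative library (log2 ratio −1.97, interval −2.06 to −1.89). Nos3, the endothelial nitric oxide synthase, had 813 and 1223 counts, or 78.1 and 129 CPM. Its log2 ratio of −0.73 (interval −0.86 to −0.60) lay below 0 and inside 2-fold. Robo4, a roundabout receptor of endothelium that stabilises vessels, had 1164 and 1251 counts, or 112 and 132 CPM. With a log2 ratio of −0.24 (interval −0.36 to −0.13) it was the member nearest to equal expression. In the order of ratios, Ecscr, Ramp2, Emcn, Mmrn2, Egfl7, Plvap, Nos3, Robo4, Clec14a and Tspan7, the other neighbours differed by more than counting error, and only Emcn and Mmrn2, and Clec14a and Tspan7, did not.

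RefSeq promoter windows (GRCm38.p6) matched 5 of the 10 genes with 7 windows: 3 starts of Egfl7, and 1 each of Emcn, Robo4, Clec14a and Tspan7. Those of 2 genes that were lower in the Venus-negative library and of the 2 with the largest ratios are shown, up to the first annotated transcript base. They are Emcn, chr3:137340828-137341066 (plus strand), Egfl7, chr2:26583615-26583863 (plus), Clec14a, chr12:58269291-58269508 (minus), and Tspan7, chrX:10484866-10485115 (plus), and run 5′ to 3′ in the direction of the gene. Capitals mark matches, on either strand, to ETS motifs (AGGAAG or CGGAAG) and GATA motifs (AGATAA or TGATAA, and likewise AGATAG or TGATAG).
Emcn: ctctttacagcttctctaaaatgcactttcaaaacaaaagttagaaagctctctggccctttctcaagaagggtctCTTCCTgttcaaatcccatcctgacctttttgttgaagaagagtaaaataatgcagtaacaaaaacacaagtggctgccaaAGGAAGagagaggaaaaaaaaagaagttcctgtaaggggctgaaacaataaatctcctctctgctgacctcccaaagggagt
Egfl7, second start: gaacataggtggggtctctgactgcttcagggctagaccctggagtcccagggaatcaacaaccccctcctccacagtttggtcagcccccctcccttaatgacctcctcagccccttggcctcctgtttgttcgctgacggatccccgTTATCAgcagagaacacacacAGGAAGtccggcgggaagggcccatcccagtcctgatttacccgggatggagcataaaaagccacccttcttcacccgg
Clec14a: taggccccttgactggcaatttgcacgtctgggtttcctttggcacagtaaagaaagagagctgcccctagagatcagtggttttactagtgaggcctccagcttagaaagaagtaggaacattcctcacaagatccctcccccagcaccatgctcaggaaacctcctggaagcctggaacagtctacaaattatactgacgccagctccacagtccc
Tspan7: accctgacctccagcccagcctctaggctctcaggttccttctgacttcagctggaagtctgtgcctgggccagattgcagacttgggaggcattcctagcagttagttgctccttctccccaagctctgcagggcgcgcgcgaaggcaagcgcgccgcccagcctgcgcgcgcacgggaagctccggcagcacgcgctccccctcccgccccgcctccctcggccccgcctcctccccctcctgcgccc
In the 250 bases before the start, Emcn had 2 ETS and 0 GATA matches. The 3 Egfl7 windows had 3, 1 and 0 ETS matches and 1 GATA match each. Clec14a and Tspan7 had 0 of either, and Robo4 had 1 ETS match, 49 bases before the RefSeq start, and 0 GATA matches. Of all 32851 windows of that length 39.2% held an ETS match and 26.5% a GATA match, so a match in a single window is common. The letters of SOX (ACAAT), KLF (CCACCC or CCGCCC) and E-box motifs (CAGCTG or CATCTG) stood in 27.7%, 48.8% and 25.5% of all windows. Robo4 had 2 SOX matches and Emcn and Clec14a 1 each. Tspan7 had 2 KLF matches, the second Egfl7 window 1 and the last 4, and Robo4, Tspan7 and the first Egfl7 window 1 E-box match each. No overlap between the 2 motifs was seen in these windows. The matches describe letters in short windows and say nothing on binding. The second Egfl7 window was chosen for printing after its matches were seen, and the first Egfl7 window also held both motifs.

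Measured against reference genes within the same library, which needs no scaling factor, the picture depended on the reference. Per count of Pecam1, the same 6 genes were lower in the Venus-negative library with an interval beyond 2-fold, from Plvap (log2 −1.35, interval −1.43 to −1.28) to Ecscr (−2.38, interval −2.52 to −2.25). Per count of Cdh5, which encodes the adhesion protein VE-cadherin and was itself 2.71-fold lower (1084 and 2667 counts, log2 ratio −1.44, interval −1.54 to −1.34), 0 were lower beyond 2-fold and 3 were higher. Those 3 were Tspan7 (log2 2.24, interval 1.97 to 2.51), Clec14a (2.19, interval 2.03 to 2.35) and Robo4 (1.19, interval 1.04 to 1.35). Egfl7 per Cdh5 was at −0.04 (interval −0.17 to 0.09), within counting error of no difference, and Ecscr per Cdh5 was at −0.81 (interval −0.97 to −0.65). On this scale the 10 genes thus lay on both sides of 0, with a median of 0.09. Dividing by a reference gene subtracts that gene's own log2 ratio (−1.44 for Cdh5, 0.13 for Pecam1) from the ratio of every gene alike. The Cdh5 scale therefore moves all genes upward, also the median of all tested genes, which was −0.01 on the TMM scale. The shares of all genes beyond 2-fold on either reference scale were not computed.

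**Figure D3:**
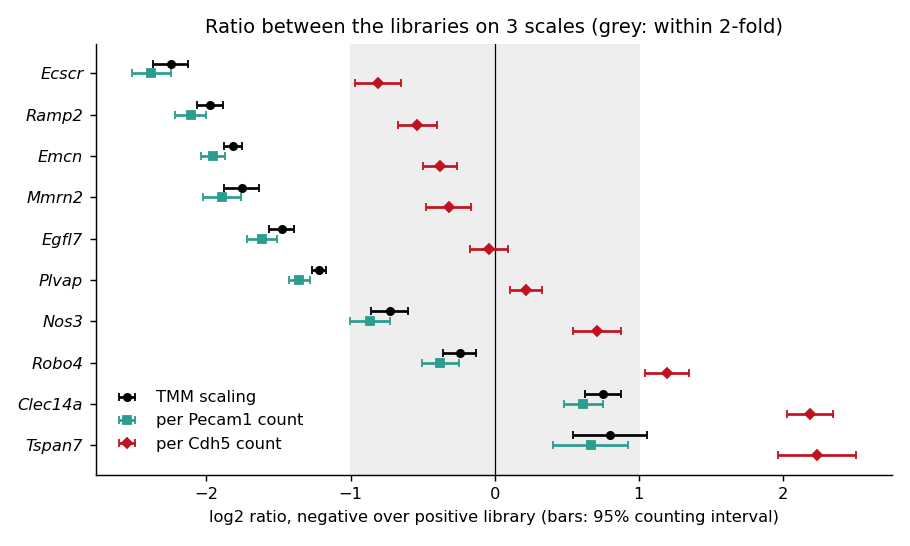
Log2 ratio of negative over positive for each gene on the TMM scale (black), per Pecam1 count (green) and per Cdh5 count (red), with 95% counting intervals and the range within 2-fold in grey. The black and green points lie close together, with 6 genes below −1, while the red points run from −0.81 for Ecscr to 2.24 for Tspan7.

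Levels of different genes were compared per length, as TPM (transcript abundance scaled to a fixed sum in each library) over the merged exons of each gene. Plvap was the most abundant of the 10 in both libraries, at 947 TPM in the Venus-negative and 2106 TPM in the Venus-positive library, and Tspan7 the least, at 21.3 and 11.7 TPM. Clec14a was the sixth of the 10 in the Venus-negative library (135 TPM) and the ninth in the Venus-positive (76.8 TPM). Ecscr went the other way, from the fifth (154 TPM) to the second place (699 TPM). In the Venus-negative library Ecscr, Ramp2 (160 TPM, interval 151 to 169) and Egfl7 (169 TPM, interval 161 to 178) had overlapping neighbouring intervals, as did Mmrn2 (79.1 TPM), Nos3 (80.2 TPM) and Robo4 (89.5 TPM). In the Venus-positive library the intervals of Ecscr (673 to 725 TPM) and Emcn (655 to 683 TPM) overlapped. With the length of the longest transcript in place of merged exons, Ramp2 took the second place in both libraries and Emcn the fourth, and Ecscr the third place in the Venus-positive library. Of all counts in the 10 genes, Clec14a took 9.88% in the Venus-negative library (exact binomial interval 9.41 to 10.4) and 2.32% in the Venus-positive (2.16 to 2.48). Tspan7 took 2.41% and 0.547%, and Ecscr 4.32% and 8.09%.

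The genes lie on 10 different chromosomes (GENCODE vM21 on mm10). Emcn spans chromosome 3, 137341067 to 137432185, Ecscr chromosome 18, 35713086 to 35722356, and Ramp2 chromosome 11, 101246028 to 101259546. Mmrn2 spans chromosome 14, 34375465 to 34404287, Plvap chromosome 8, 71497765 to 71511752, and Clec14a, which has a single exon, chromosome 12, 58264720 to 58269290. Egfl7 spans chromosome 2, 26580014 to 26593120, Robo4 chromosome 9, 37401897 to 37415115, Nos3 chromosome 5, 24364810 to 24384474, and Tspan7 chromosome X, 10485158 to 10596605. Emcn, Mmrn2, Clec14a and Robo4 overlap no other gene of that annotation, and Plvap and Tspan7 overlap another gene without shared exon bases. Ecscr shares 62 exon bases with a gene at 0 counts in both libraries, and Egfl7 shares 264 with the overlapping gene model Gm20532, which has no row in the tables, and 64 with Agpat2 (188 and 431 counts). Ramp2 shares 1103 of its 3301 merged exon bases with Vps25 on the same strand, a gene at 866 and 1352 counts. Nos3 shares 294 exon bases with Atg9b (101 and 54 counts) and 1040 with an antisense gene on the opposite strand. Whether counting used strand is not given in the sources used here, and reads from these stretches cannot be assigned with certainty.

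The partners of these proteins were taken from lists of related genes and are given with the same rule, by which 12.3% of all tested genes were lower in the Venus-negative library and 12.6% higher. Whether a list differed from those shares was not tested. The median log2 ratio was −1.72 for the lectin and EMILIN genes (interval over genes −7.19 to 5.41), −0.92 for caveolae (−7.46 to 0.52) and 0.54 for the adrenomedullin genes (−4.68 to 6.96). It was −0.11 for nitric oxide genes (−1.19 to 0.65), −0.39 for SLIT and ROBO genes (−0.84 to 1.78) and −0.38 for tetraspanins (−0.97 to 0.27). All 6 intervals held 0 and overlapped, which does not compare the lists. In the lectin and EMILIN, caveolae and adrenomedullin lists the interval ends are the lowest and highest gene, with genes at 0 set at their bound. The sialomucins (−0.27) and the EGFL and lysyl oxidase genes (−0.24) were too few for an interval. In the adrenomedullin list, 6 of 9 genes had at least 20 counts, of which 1 was lower in the Venus-negative library and 3 were higher. Calcrl, the receptor with which Ramp2 pairs, had 553 and 1748 counts and was 3.48-fold lower (log2 ratio −1.80, interval −1.94 to −1.66), close to Ramp2. The ratio of Ramp2 to Calcrl differed between libraries by −0.18 on the log2 scale (interval −0.34 to −0.01). The related genes Ramp1 and Ramp3 lay on the opposite side. Ramp1 had 137 and 24 counts, 5.19-fold higher in the Venus-negative library (log2 ratio 2.37, interval 1.74 to 3.06). Ramp3 had 137 counts and 1 (log2 ratio 6.96, interval 4.46 to 12.27). Over merged exons, Ramp2 thus made up 73.1% of the TPM of the 3 RAMP genes in the Venus-negative and 99.4% in the Venus-positive library. These shares depend on the length used. In the Venus-negative library Ramp2, Ramp1 and Ramp3 were at 160, 18.5 and 40.5 TPM over merged exons. Per longest transcript they were at 264, 17.7 and 30.9 TPM, and the shares were not recomputed. Ackr3, a scavenging receptor that also binds adrenomedullin, was 2.89-fold higher, and the ligand gene Adm, named after its values were seen, had 0 and 70 counts.

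Clec14a and Cd93 belong to the group 14 C-type lectins, and both bind Mmrn2. Cd93 had 400 and 3187 counts and was 8.77-fold lower in the Venus-negative library (log2 ratio −3.13, interval −3.29 to −2.98). Per length, Clec14a stood at 5.53 times the level of Cd93 in the Venus-negative library and at 0.375 times in the Venus-positive. That ratio of ratios was 14.7-fold (log2 3.88, interval 3.69 to 4.08). Mmrn2 lay between its binding partners: per Clec14a it was 5.67-fold lower in the Venus-negative library, and per Cd93 2.60-fold higher. In the whole list of lectins and EMILIN genes 3 of 6 tested genes were lower and 2 higher. The others were Thbd, thrombomodulin (119 and 777 counts, 7.19-fold lower), and Emilin2 (0 and 398 counts), and in the other direction Emilin3 (140 and 0 counts) and Cd248. Cd248, a lectin of mesenchymal cells and pericytes, was named after its values were seen and had 1728 and 435 counts, 3.61-fold higher.

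**Figure D4:**
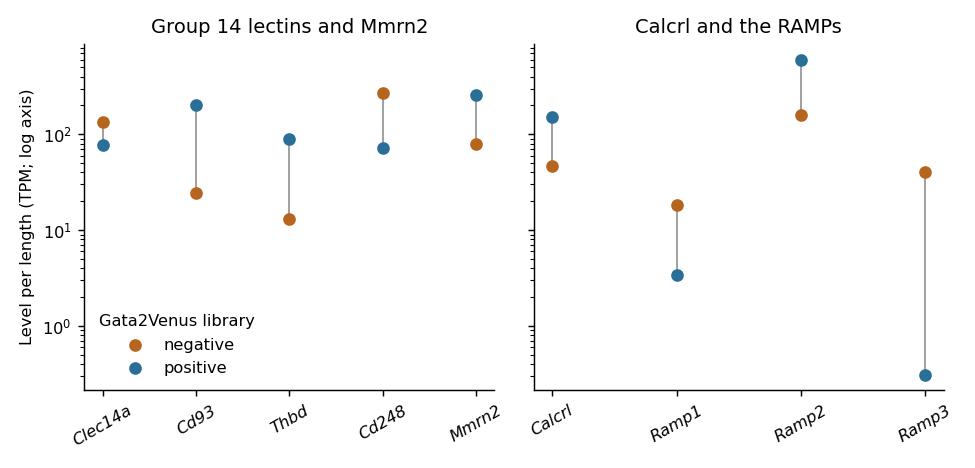
Level per length (TPM, log axis) of the group 14 lectins with Mmrn2 and of Calcrl with the RAMP genes in the Venus-negative (brown) and positive (blue) library, 1 library each. Cd93, Thbd, Mmrn2, Calcrl and Ramp2 are lower in the Venus-negative library, Cd248, Ramp1 and Ramp3 are higher, and Clec14a is at 135 and 76.8 TPM; the positive value of Ramp3 rests on 1 count.

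Of the genes of nitric oxide synthesis and response, 5 of 23 tested were lower and 2 higher in the Venus-negative library, beside the 12.3% and 12.6% over all tested genes. Nos1 had 0 counts in both libraries and Nos2 had 0 and 8, so that Nos3 was the synthase gene with more than a few counts. A count of 0 allows up to 3 counts, or 0.288 CPM in the Venus-negative and 0.317 CPM in the Venus-positive library. Cav1, the caveolar protein that binds and restrains the enzyme, had 337 and 906 counts and was 2.96-fold lower (log2 ratio −1.57, interval −1.75 to −1.38), so that Nos3 per Cav1 was 1.79-fold higher in the Venus-negative library (log2 0.84, interval 0.62 to 1.06). Klf2, a flow-responsive factor that activates Nos3, was named after its values were seen and was 2.92-fold lower. The subunits of the nitric oxide receptor guanylyl cyclase went apart: Gucy1b3 was 6.50-fold higher (322 and 45 counts), and Gucy1a3, named after its values were seen, 2.30-fold lower (331 and 692 counts, log2 ratio −1.20, interval −1.40 to −1.01). Gucy1a3 did not pass when libraries were scaled by total counts (interval −1.32 to −0.93), which left 4 lower genes. Arg1, which competes for the substrate arginine, was 4.12-fold higher.

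Caveolar genes, which shape the pits that Plvap closes, were lower in 4 of 8 tested genes and higher in 0. Among these, Cav1, Cav2 and Ptrf are also on the nitric oxide list and were counted as lower there too. Ptrf, which builds the caveolar coat, had 6 and 962 counts (log2 ratio −7.46, interval −8.91 to −6.34). Cav2 was 3.90-fold and Prkcdbp 2.30-fold lower, and Prkcdbp did not pass when libraries were scaled by total counts (interval −1.26 to −0.99), which left 3 lower genes. Among SLIT, ROBO and UNC5 genes 1 of 12 was lower and 3 were higher, and tetraspanins beside Tspan7 were lower in 4 of 23 tested genes and higher in 1, again beside 12.3% and 12.6% over all tested genes. The lower gene was Unc5b, a receptor that binds Robo4, with 208 and 465 counts (log2 ratio −1.30, interval −1.54 to −1.06), and it too did not pass when libraries were scaled by total counts. Unc5c (7.40-fold), Slit3 (5.42-fold) and Robo2 (3.44-fold) were higher in the Venus-negative library. Of 5 tested sialomucins beside Emcn, Pdpn was 7.53-fold higher, and Cd34, chosen after its values were seen, had 455 and 759 CPM without passing the rule. Of the tetraspanins, Cd37 (0 and 103 counts), Tspan32 (6.82-fold) and Cd53 (4.81-fold), which mark blood cells, were lower, as was Cd9 (2.66-fold), named after its values were seen, and Tspan12 was 4.64-fold higher. Of 4 tested EGFL and lysyl oxidase genes, Loxl3 was 6.92-fold lower and Loxl1 2.56-fold higher, which did not pass when TMM factors were taken without ribosomal, mitochondrial, small RNA and predicted genes (interval 0.99 to 1.71).

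The wider endothelial list, which holds none of the 10 genes, was lower in the Venus-negative library in 14 of 34 genes and higher in 0, with a median log2 ratio of −0.83 (interval over members −1.44 to −0.55). Cd93, Calcrl and Cav1, already counted in partner lists, are among the 14. For this and the lists below, the shares over all tested genes were 12.3% lower and 12.6% higher. Whether a list differed from those shares was not tested. Scaled by total counts, 12 endothelial markers were lower and 1 higher: Tie1 and Flt4, receptors of endothelium, no longer passed, and Tmem204 did (log2 ratio 1.24, interval 1.01 to 1.47). The 10 genes overlapped this list in range, and their difference from it was not tested. Markers of other cell types moved in the same libraries. Of tested markers, 8 of 13 haematopoietic, 8 of 11 macrophage, 7 of 10 megakaryocyte and 4 of 6 erythroid genes were lower in the Venus-negative library and 0 were higher. Their summed levels were 292 and 740 CPM, 237 and 1055 CPM, 94.1 and 474 CPM, and 0.192 and 98.0 CPM. Of these markers Gfi1b, Cd48, Myb, Timd4, Gp5, Gp1bb, Gata1, Klf1, Epor, Hemgn and Car1 were at 0 in the Venus-negative library alone, and Spn, Gfi1, Ermap and Slc4a1 in both. Itgb2, Gp1ba, Tmod1 and Alas2 had 1 count there and Cx3cr1 and Tubb1 had 3. Mesenchymal and smooth muscle markers were higher in 7 of 15 tested genes and lower in 0, with summed levels of 8904 and 5696 CPM, and Myh11 and Twist1 were at 0 and Rgs5 at 2 counts in the Venus-positive library. Epithelial and coelomic markers were higher in 2 of 8 (492 and 368 CPM in sum), with Msln at 0 in the Venus-negative library, and neural crest markers in 1 of 3 (50.5 and 30.3 CPM), with Sox10 and Th at 0 in both. Of either list 0 were lower by the rule. Dbh of the neural crest list, named after its values were seen, had 103 and 216 counts. With genes at 0 set at their bound, the median log2 ratios were −1.50 for haematopoietic, −2.65 for macrophage, −5.41 for megakaryocyte, −5.64 for erythroid, 1.20 for mesenchymal, 0.50 for epithelial and 2.28 for neural crest markers. The part of these populations in the levels of the 10 genes was not tested.

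**Figure D5:**
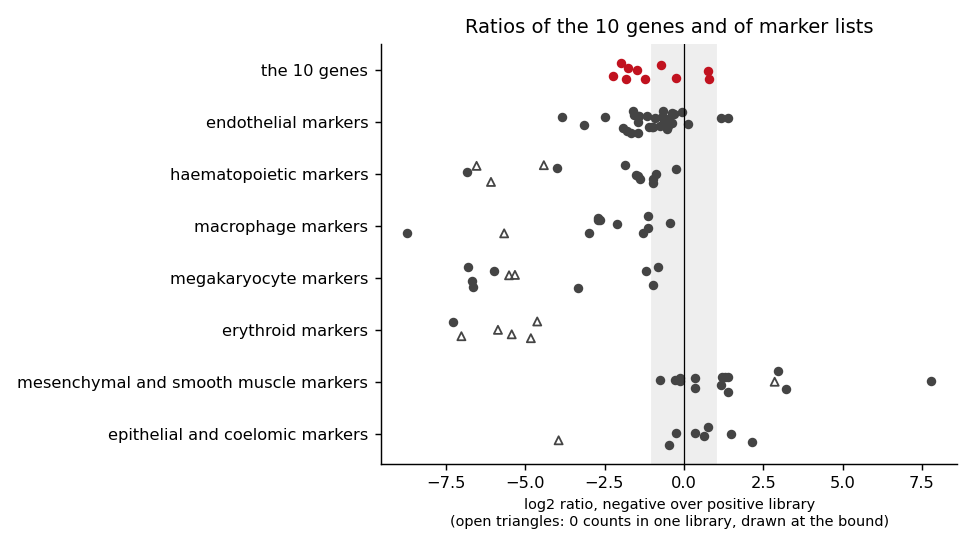
Log2 ratio of negative over positive for the 10 genes (red) and for tested members of the marker lists (grey), with genes at 0 counts in one library drawn as open triangles at the bound given by 3 counts and the range within 2-fold shaded. Points of the haematopoietic, macrophage, megakaryocyte and erythroid lists lie to the left of 0, most mesenchymal points lie to the right, and the 10 genes run from −2.25 to 0.80.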

How the data were processed

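Per the labels' protocols, RNA was extracted with Ambion's mirVana kit, copied by the SMARTER protocol and sequenced as Illumina libraries. TopHat, Cufflinks and HTSeq, with build mm10, are named per the submitters' processing notes. Their versions, the annotation and the strand setting were not given in the sources used here. The deposited values are whole-number counts per gene symbol, 1 table per library. The rows of reads assigned to no gene (not unique 45.5% and 48.2%, no feature 5.93% and 8.00%, ambiguous 0.474% and 0.412% of each table) were left out.

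Counts were scaled by TMM factors (1.03 and 0.974; edgeR 4.0.16, R 4.3.3). Ratios have exact Clopper-Pearson 95% intervals given the total of the gene, levels exact Poisson intervals, and ratios to a reference gene normal intervals on the log scale. The rule of size (10 CPM, 50 counts, interval beyond 2-fold) replaces a test, because each group has 1 library. Lengths come from GENCODE vM21, which matched 94.4% of genes by symbol. The steps were tested on simulated data. The simulated counts held Poisson error alone, so that test did not cover variation between libraries or from amplification. The 10 genes, the lists and the rule were chosen with earlier results of these data known. Named genes are the 10, the sort genes, up to 4 of each partner list past the rule ranked by how far the interval lay from equal expression, the binding partners of members, and cell type markers at 3 or fewer counts in one library. A few listed markers are not reported here and stay out of the counts of their lists. Other genes are said to be named after their values were seen. Alternatives were other scalings (total counts, size factors of DESeq2 1.42.0, TMM after removing the 100 top genes, and TMM after removing ribosomal, mitochondrial, small RNA and predicted genes), filters, folds, thinning, an added 0.5 counts and an assumed variation between libraries.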

Additional observations from a re-analysis of the deposited data

How the results depend on the processing

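Of the 10 genes, the same 6 passed the rule under 10 of the 12 alternatives: the 4 other scalings, the 3 other filters, a 2-fold ratio without the interval, thinning of the deeper library, and 0.5 added counts. The filters, of at most 50 CPM, could not remove any of the 6, which had at least 250 CPM in the Venus-positive library. A rule without the interval is only looser, so it could not remove them either. With an interval beyond 4-fold 1 gene (Ecscr) was lower, and with a coefficient of variation of 0.4 assumed among libraries of a group 0 were; both ask for larger differences by construction. Under all 12 alternatives 0 genes were higher by the rule, and under the 6 that alter the ratios themselves 0 of 60 recomputed member ratios changed sign. The 4 other scalings moved log2 ratios by at most 0.08, less than the smallest member ratio (−0.24, Robo4). They therefore could not change a sign. Scaling by total counts moved all log2 ratios by 0.08, and moved Emcn to −1.74 and Plvap to −1.14, outside their counting intervals. Under that scaling Gucy1a3, Prkcdbp, Unc5b, Tie1, Flt4 and Cd68 no longer passed as lower, and Tmem204 passed as higher. Marker lists of other cell types were recomputed by alternatives chosen after seeing the data. Without a filter 1 epithelial marker was lower in place of 0, and 2 neural crest markers were higher in place of 1. Likewise 9 haematopoietic markers were lower in place of 8, 6 erythroid in place of 4, and 8 mesenchymal were higher in place of 7. With TMM after removing ribosomal, mitochondrial, small RNA and predicted genes, Tagln no longer passed as higher. Under that scaling Csf1r passed as lower, and both are named after their values were seen. Epor passed as lower with TMM after removing the 100 top genes. With Cdh5 in place of Pecam1 as reference, 0 in place of 6 genes were lower beyond 2-fold and 3 in place of 0 were higher. Cdh5 itself was lower in the Venus-negative library (log2 ratio −1.44), so its scale moves every gene upward. On the TMM scale the median of all tested genes was −0.01. The shares of all genes beyond 2-fold on the Cdh5 scale were not computed, so these counts have no background to be read against. No paired analysis was possible because each group has 1 library, and for the same reason leaving out a library gives no value.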
